A study of Homo sapiens with 18 samples.

Results

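The nuclear genes for subunits of the respiratory chain and ATP synthase were followed in 18 RNA-seq libraries of PANC-1 cells, an established line derived from a human pancreatic ductal carcinoma. A gene was taken when its listed name began with NDUFA, NDUFB, NDUFC, NDUFS or NDUFV, with UQCR, with COX4 to COX8 or with ATP5, or was SDHA, SDHB, SDHC, SDHD or CYC1. Assembly factors (NDUFAF) and names of pseudogenes were left out. A mean of at least 10 normalized counts was required in each table, and 78 of the 26485 genes listed met all of this. They comprised 37 genes of complex I, 4 of complex II, 9 of complex III, 11 of complex IV and 15 of complex V. The other 2 names do not denote subunits in the strict sense, COX7A2L being a supercomplex factor and ATP5SL a complex I assembly protein now called DMAC2. The 13 subunits encoded by mitochondrial DNA were not analysed here. NDUFA4 was counted with complex IV, of which it is a subunit despite its name.

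Cells in the first experiment received by transfection either a control siRNA or an siRNA against PKR, of which there were 2 (PKR siRNA 1; PKR siRNA 2), and cells in the second received DMSO, 400 nM C16 or 800 nM C16. PKR is the double-stranded RNA-activated kinase encoded by EIF2AK2, and C16 is a small-molecule inhibitor of that kinase. RNA was collected after 72 h, and each of the 6 groups held 3 libraries. Each experiment was sequenced in its own run and has its own table, so an effect of the run and one of the kind of treatment cannot be told apart, and levels were compared within a table only. All groups share a single cell line, and the sources used here do not state whether replicates were separate cultures, so p-values measure the spread between these libraries.

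The respiratory chain passes electrons from NADH (complex I) and succinate (complex II) through ubiquinone, complex III and cytochrome c to oxygen at complex IV. Complexes I, III and IV pump protons across the inner mitochondrial membrane, and complex V, the ATP synthase, uses the returning protons to make ATP. Complexes I, III and IV have catalytic core subunits, among them those that bind the redox cofactors, and accessory subunits, which help to assemble and stabilize them. Complex II stands apart because it is also the succinate dehydrogenase of the citric acid cycle and has no subunit from mitochondrial DNA.

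Libraries held 1512940 to 1873906 reads on genes in the siRNA table and 894145 to 1474308 in the C16 table. EIF2AK2, the targeted gene, had 95.5, 93.5 and 103 normalized counts under control siRNA, whereas PKR siRNA 1 left 10.0, 13.6 and 9.65 and PKR siRNA 2 left 7.96, 8.58 and 9.40, so the groups did not overlap. With DMSO, 400 nM C16 and 800 nM C16, its mean was 49.8, 42.5 and 49.9. Of 6 epithelial markers, the keratin genes KRT8, KRT18 and KRT19 had at least 519.5 normalized counts in every library, whereas KRT7 (0.761 to 20.5), EPCAM (9.40 to 120) and CDH1 (9.07 to 61.7) were low. The leukocyte markers PTPRC and CD3E and the fibroblast markers COL1A2 and DCN were at 0 in all 18. CD68 ranged from 51.0 to 273 and COL1A1 from 21.8 to 161, and their part in the results was not tested. In bulk RNA a lower count can mean fewer cells with the transcript or less of it per cell, and these cannot be told apart.

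The level per kilobase of exon differed widely between subunits. Within the control siRNA libraries, the median per complex was 386 normalized counts per kb for complex IV, 219 for complex V, 173 for complex III, 109 for complex I and 104 for complex II, and the DMSO libraries gave the same order (338, 176, 131, 96.0 and 92.3). ATP5B, the catalytic beta subunit, stood highest in the control siRNA libraries at 937 ± 18.4 (SD, n = 3) per kb, followed by COX7C at 723 ± 25.7 and COX6B1 at 609 ± 48.8, small structural subunits of cytochrome c oxidase. The lowest was NDUFA5, an accessory subunit of complex I, at 11.4 ± 0.547 per kb over 6506 exon bases. Exon length was the union over annotated transcripts, so genes with long rarely used exons are placed too low. Complex IV was represented by its ubiquitous isoforms. COX4I1, COX6A1, COX6B1 and COX7A2 were members, whereas the alternative forms COX4I2, COX6A2 and COX7A1 and the paralogue NDUFA4L2 had table means under 1 normalized count, and COX6B2 had means of 5.50 and 3.43. The members with the lowest means were NDUFA7 (25.4), NDUFB1 (43.3) and NDUFC2 (47.9) over the siRNA libraries and NDUFA7 (19.1), NDUFV3 (24.0) and ATP5SL (26.3) over the C16 libraries. The closest gene left out was ATP5S (16.2 and 9.32).

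Some member counts are uncertain. Exons of ATP5E, ATP5J2 and NDUFC2 overlapped a same-strand readthrough gene over 66.3%, 35.4% and 31.7% of their bases, and those of ATP5J overlapped GABPA on the opposite strand over 48.8%. Pseudogenes named after a member exist for 49 of the 78. The SDHA pseudogenes SDHAP1, SDHAP2 and SDHAP3 were listed at 16.3, 8.76 and 17.5 in the siRNA table, so reads can be split between SDHA and its copies.

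PKR siRNA 1 raised more respiratory chain genes than it lowered. Relative to control siRNA, 28 of the 78 passed the test upward and 6 downward (limma on log2 of the normalized count + 1, Benjamini-Hochberg adjusted p under 0.05 over all genes tested). Among all 10593 genes tested the shares were 21.1% upward and 23.9% downward, against 35.9% and 7.69% of the members. The median log2 fold change was 0.16 over the members and -0.01 over all genes. Few of these changes were large. Past a fold change of 1.5, only NDUFA5 and NDUFV3 were higher and only NDUFS1 and NDUFV2 lower, while 8.53% and 12.6% of all genes passed that rule in the respective directions.

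PKR siRNA 2 gave a different balance, with 11 members higher and 20 lower. All genes gave 22.1% higher and 25.2% lower, and the members 14.1% and 25.6%. The median was -0.02 over the members and -0.01 over all genes. By limma 0 members passed a 1.5-fold rise (1 with edgeR and 1 with DESeq2), against 10.8% of all genes, and only COX8A and SDHD passed a 1.5-fold fall, against 12.8%.

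The direct comparison of the siRNAs is the test of whether they differed. In PKR siRNA 2 libraries 39 of the 78 members were lower and 8 higher than in PKR siRNA 1 libraries, and the higher ones are 10.3% of the members, beside 29.3% and 27.7% of all genes. The median was -0.24 over the members and -0.01 over all genes. The 8 higher genes were ATP5A1, ATP5B, ATP5SL, NDUFA9, NDUFS4, NDUFS8, NDUFV2 and SDHA. Past 1.5-fold, 3 were higher (ATP5SL, NDUFA9 and NDUFV2) and 8 lower (ATP5G1, COX6C, COX8A, NDUFA5, NDUFA7, SDHD, UQCRB and UQCRQ), with 16.4% and 15.3% of all genes.

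With 400 nM C16, 6 members were higher than with DMSO (ATP5G1, NDUFB9, SDHB, UQCRC1, UQCRC2 and UQCRH) and 9 lower, beside 14.6% and 11.9% of the 9963 genes tested in that table. A 1.5-fold rise was passed by 0 members (0 also with edgeR and DESeq2) and 7.08% of all genes, and a 1.5-fold fall by 4 members (NDUFA7, NDUFB5, NDUFC2 and NDUFS8) and 5.45% of all genes. With 800 nM C16, 21 members were higher and 15 lower, or 26.9% and 19.2%, beside 22.3% and 22.6% of all genes. The 1.5-fold rule was passed by 0 members upward (0 also with edgeR and DESeq2) and 6 downward (ATP5G2, ATP5SL, NDUFA7, NDUFB1, NDUFB5 and NDUFS8), against 11.6% and 14.1% of all genes. The medians over the members were 0.00 at 400 nM and 0.08 at 800 nM, and over all genes 0.00 at each dose.

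Between the doses, 10 members were higher at 800 nM (ATP5B, ATP5G3, ATP5J, ATP5J2, COX4I1, NDUFA10, NDUFA12, NDUFC2, NDUFS5 and NDUFV1) and ATP5G2 alone was lower. The shares of all genes were 5.09% and 9.18%. By limma, edgeR and DESeq2 alike, 0 members passed 1.5-fold between doses in either direction, where 1.13% and 3.95% of all genes did. The median was 0.07 over the members and -0.02 over all genes. Leaving out 1 library moved several of the C16 counts: 400 nM gave 3 higher members without DMSO replicate 3 and 5 lower without DMSO replicate 2. Between doses 4 were higher without 800 nM C16 replicate 2 and 5 without 800 nM C16 replicate 3, and the fall of ATP5G2 was lost without 400 nM C16 replicate 2 or either of 800 nM C16 replicates 1 and 2.

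**Figure D1:**
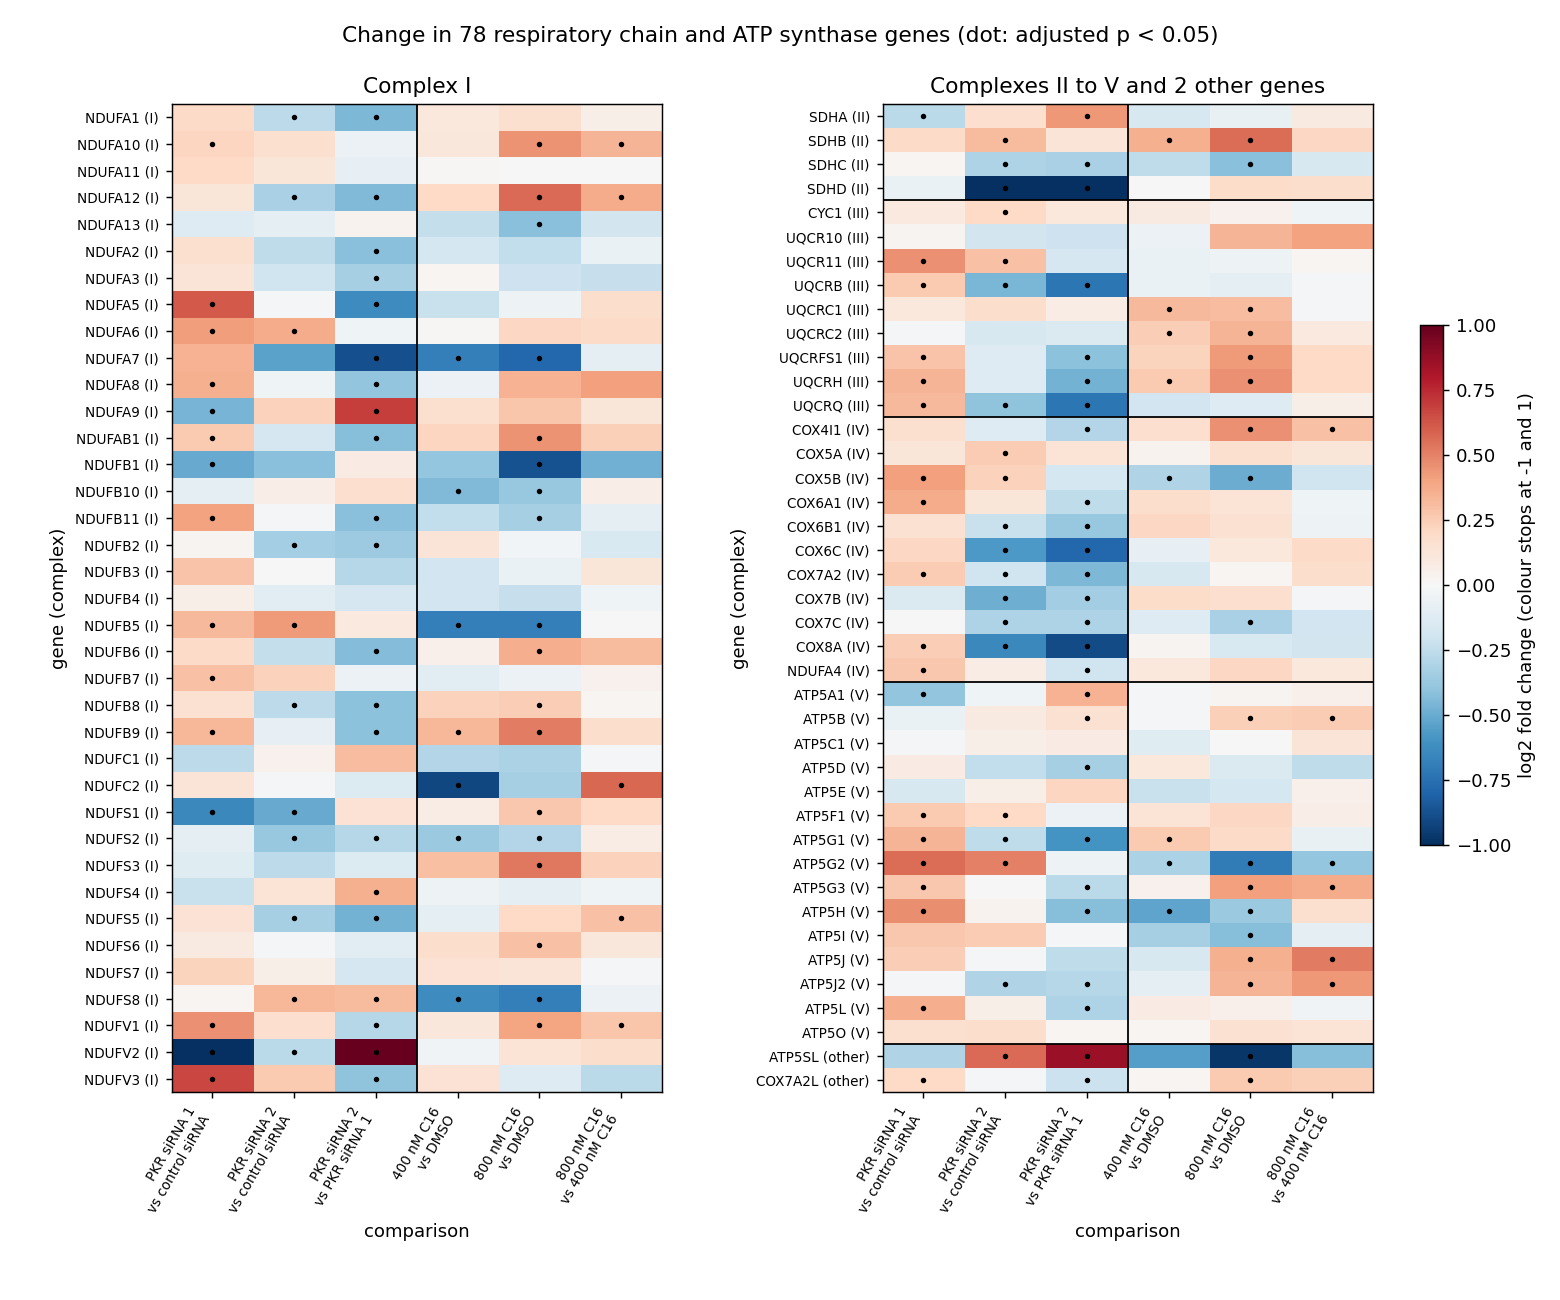
Log2 fold change of each of the 78 genes (rows, with the complex in brackets) in 6 comparisons (columns, siRNA table left of the black line, C16 table right), with red for higher and blue for lower in the first-named group and a dot where the limma adjusted p was under 0.05. Colours stop at -1 and 1, and the cells beyond that include NDUFV2 with PKR siRNA 1 at -1.34 and SDHD under PKR siRNA 2 at -1.68.

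Complex I showed its largest change in a core subunit. NDUFV2, which carries an iron-sulfur cluster of the NADH-oxidizing module, had 236, 228 and 241 normalized counts with control siRNA, compared to 94.4, 105 and 79.1 under PKR siRNA 1 and 211, 181 and 194 under PKR siRNA 2. All PKR siRNA 1 libraries lay below all others, and the PKR siRNA 2 libraries lay just below the controls without overlap. The log2 fold change was -1.34 ± 0.10 (SE, 0.396-fold, limma adjusted p = 8.23e-20) with PKR siRNA 1 and -0.27 ± 0.10 (adjusted p = 0.0221) under PKR siRNA 2, and the difference between the siRNAs was 1.07 (adjusted p = 1.40e-15). For 3 against 3 libraries the exact permutation test cannot go below p = 0.1, which is what it gave for NDUFV2 with either siRNA. The small fall under PKR siRNA 2 lost its call with DESeq2 (adjusted p = 0.0915) and without either of Control siRNA replicates 1 and 3 or of PKR siRNA 2 replicates 2 and 3. With C16, NDUFV2 had means of 141 (DMSO), 136 (400 nM) and 154 (800 nM), and the groups overlapped.

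NDUFS1, the largest core subunit and the binding site of further iron-sulfur clusters, was lower with both siRNAs. Its counts were 288, 250 and 279 with control siRNA, compared to 162, 163 and 196 under PKR siRNA 1 and 190, 187 and 198 under PKR siRNA 2. No treated library reached the lowest control. The log2 fold changes were -0.65 ± 0.09 (limma adjusted p = 4.11e-09) and -0.50 ± 0.09 (adjusted p = 2.13e-06), and the difference between the siRNAs did not pass (0.15, adjusted p = 0.160), though it did without PKR siRNA 1 replicate 3 (0.234, adjusted p = 0.0360). With 800 nM C16 the direction was the opposite, 206 ± 22.9 (SD, n = 3) against 170 ± 14.8 with DMSO, a log2 fold change of 0.27 (adjusted p = 0.0257, but 0.101 with DESeq2). NDUFV1, the flavin-bearing partner of NDUFV2, rose with PKR siRNA 1, from 259, 229 and 275 to 361, 364 and 319 (0.45, limma adjusted p = 2.10e-06), and with 800 nM C16, from 202, 218 and 202 to 260, 280 and 277 (0.39, adjusted p = 0.000297).

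Across the 7 nuclear core subunits of complex I the median log2 fold change with PKR siRNA 1 was -0.10, with 1 higher and 2 lower. Over the 30 accessory subunits it was 0.18, with 10 higher and 2 lower, beside 21.1% and 23.9% of all genes. This difference between core and accessory subunits was not tested. With PKR siRNA 2 the medians were -0.26 and -0.03. Among accessory subunits, NDUFA5 rose with PKR siRNA 1, from 77.0, 75.2 and 70.2 to 120, 97.1 and 127 (0.62, limma adjusted p = 5.69e-05), and NDUFV3 from 41.1, 41.9 and 44.6 to 63.3, 71.7 and 69.5 (0.67, adjusted p = 0.000394). Neither overlapped its control. NDUFA9, a ubiquinone-module subunit, fell from 106, 88.1 and 83.4 to 65.5, 59.9 and 74.3 (-0.47, adjusted p = 0.00201) and was higher under PKR siRNA 2 than with PKR siRNA 1 by 0.69 (adjusted p = 3.50e-06).

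With C16, the complex I subunits NDUFS8, NDUFB5 and NDUFC2 fell, none of which was called lower with either siRNA. NDUFS8, a core subunit with 2 iron-sulfur clusters, had 114, 130 and 109 normalized counts with DMSO, 78.7, 76.1 and 71.3 at 400 nM and 65.6, 73.1 and 79.2 at 800 nM. Each treated library lay below each DMSO library, and the doses overlapped. The log2 fold changes were -0.63 (limma adjusted p = 0.000133) and -0.69 (adjusted p = 1.47e-05). In the siRNA table NDUFS8 was not called with PKR siRNA 1 (0.02, adjusted p = 0.897) and higher under PKR siRNA 2 (0.33, adjusted p = 0.00586). NDUFB5, a membrane-arm accessory subunit, followed the same division. It had 99.1, 111 and 106 with DMSO, 59.6, 80.7 and 57.4 at 400 nM and 51.4, 79.2 and 67.7 at 800 nM, a log2 fold change of -0.69 at each dose (adjusted p = 0.000237 and 0.000107). In the siRNA table it went from 93.4, 87.0 and 96.7 to 124, 102 and 124 with PKR siRNA 1 (0.33, adjusted p = 0.0169) and 140, 116 and 118 under PKR siRNA 2 (0.42, adjusted p = 0.00172).

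NDUFC2 fell at 400 nM, from 75.8, 57.1 and 45.7 to 26.6, 26.5 and 40.4 (-0.91, limma adjusted p = 0.000189). At 800 nM it had 40.3, 56.1 and 42.9, which overlapped DMSO (adjusted p = 0.150). The doses also overlapped, and their difference of 0.57 (limma adjusted p = 0.0335) was lost with edgeR (0.0605) and DESeq2 (0.189). Its exons overlap a readthrough gene, as given above. NDUFB1 fell at 800 nM from 52.5, 55.2 and 45.7 to 35.3, 25.6 and 22.9 (-0.87, adjusted p = 0.000178). In the siRNA table its mean went from 52.7 ± 5.26 (SD, n = 3) to 38.0 ± 11.4 with PKR siRNA 1, a call with overlap (-0.50, limma adjusted p = 0.0236, but 0.129 with DESeq2), and to 39.2 ± 5.21 under PKR siRNA 2, without overlap or a call (-0.42, limma adjusted p = 0.0575). NDUFA7, the member with the fewest reads, was at 28.2, 25.7 and 25.1 with DMSO, 16.0, 15.0 and 17.0 at 400 nM and 18.2, 14.6 and 12.4 at 800 nM. Its calls (adjusted p = 0.0441 and 0.0123) did not hold with DESeq2 (0.156 and 0.0662), and the first was also lost without any 1 of the 6 libraries compared.

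Other complex I subunits rose with C16. NDUFA12 went from 99.1, 79.0 and 77.7 with DMSO to 119, 134 and 125 at 800 nM (0.57, limma adjusted p = 0.000188), and its 400 nM libraries, at 81.9, 104 and 109, overlapped DMSO. NDUFS3, a core subunit of the connecting arm, went from 101, 67.6 and 73.9 to 114, 113 and 119 (0.53, adjusted p = 0.000618). NDUFB9 rose at both doses, by 0.33 (adjusted p = 0.00322) and 0.51 (adjusted p = 3.20e-06). At 800 nM, 10 of the 37 complex I genes were higher and 8 lower, beside 22.3% and 22.6% of all genes. Their median was -0.03.

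Complex II held the largest change of all members. SDHD, the membrane anchor that binds heme and ubiquinone, had 171, 164 and 191 normalized counts with control siRNA, compared to 178, 146 and 180 under PKR siRNA 1 and 57.7, 65.4 and 41.4 under PKR siRNA 2. The PKR siRNA 2 libraries lay far below the other 6, which overlapped. The log2 fold change was -1.68 ± 0.12 (SE, 0.312-fold, limma adjusted p = 7.70e-21) under PKR siRNA 2 and -0.07 ± 0.12 (adjusted p = 0.690) with PKR siRNA 1, and the siRNAs differed by -1.62 (adjusted p = 3.63e-20). With DMSO, 400 nM and 800 nM C16 the means were 171, 172 and 195 (adjusted p = 0.984 and 0.121). The head-to-head neighbour TIMM8B, on the other strand of chromosome 11, had a log2 fold change of -0.25 (adjusted p = 0.117) under PKR siRNA 2.

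The other 3 complex II genes moved apart from each other. SDHB, the iron-sulfur subunit, had 212, 236 and 222 with control siRNA, compared to 257, 253 and 253 under PKR siRNA 1 and 273, 298 and 262 under PKR siRNA 2, and it had 171, 162 and 152 with DMSO, 201, 217 and 203 at 400 nM and 251, 253 and 214 at 800 nM. The treated libraries were above their controls throughout, with log2 fold changes of 0.19 (limma adjusted p = 0.0530), 0.31 (adjusted p = 0.000941), 0.35 (adjusted p = 0.00314) and 0.56 (adjusted p = 1.75e-06). SDHA, the flavoprotein, fell with PKR siRNA 1 from 278, 267 and 267 to 258, 219 and 203 (-0.27, adjusted p = 0.00632) and was not called under PKR siRNA 2 (0.16) or C16 (-0.16 and -0.07). SDHC, the second anchor, fell under PKR siRNA 2 (-0.31, adjusted p = 0.00174) and with 800 nM C16 (-0.42, adjusted p = 0.00165).

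In complex III, 5 of 9 genes rose with PKR siRNA 1 and 0 fell (0 also at an unadjusted p under 0.05 and with edgeR or DESeq2), and under PKR siRNA 2 there were 2 higher and 2 lower. Of all genes, 21.1% were higher and 23.9% lower with PKR siRNA 1, and 22.1% and 25.2% under PKR siRNA 2. UQCRB, a small subunit at the ubiquinone site, had 261, 231 and 241 normalized counts with control siRNA, compared to 305, 285 and 289 under PKR siRNA 1 and 170, 185 and 177 under PKR siRNA 2. UQCRQ had 140, 124 and 159, then 185, 178 and 164, then 117, 105 and 95.9. In each gene the 3 groups did not overlap, with PKR siRNA 1 above and PKR siRNA 2 below the control. The log2 fold changes were 0.26 and -0.46 for UQCRB and 0.32 and -0.40 for UQCRQ, and the direct differences were -0.72 (limma adjusted p = 7.30e-12) and -0.73 (adjusted p = 1.39e-08). UQCRFS1, the Rieske iron-sulfur protein, rose with PKR siRNA 1 (0.28, adjusted p = 0.00136) but had -0.13 under PKR siRNA 2 (adjusted p = 0.156). UQCR11, another small subunit, rose with both (0.46 and 0.29, adjusted p = 7.38e-05 and 0.0116), and UQCRC1, a core protein, had 0.10 and 0.17 without a call. CYC1, cytochrome c1, was higher under PKR siRNA 2 than in the control (0.20, adjusted p = 0.0272), and a difference from PKR siRNA 1 was not called (0.10, adjusted p = 0.249).

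Complex III was the complex with the highest median at 800 nM C16, 0.31, with 4 of 9 higher and 0 lower by limma (0 also at an unadjusted p under 0.05 and with edgeR or DESeq2). Of all genes, 22.3% were higher and 22.6% lower at that dose. UQCRC1 rose from 214, 216 and 214 with DMSO to 257, 277 and 271 at 400 nM and 249, 291 and 260 at 800 nM (0.32 and 0.31, adjusted p = 0.00366 and 0.00266). UQCRFS1 rose at 800 nM, from 194, 205 and 185 to 259, 274 and 253 (0.43, adjusted p = 6.60e-05), and UQCRH, the hinge protein, from 398, 360 and 333 to 473, 507 and 515 (0.46, adjusted p = 1.18e-06). None of these treated groups overlapped DMSO. UQCRB and UQCRQ had -0.09 and -0.13 at 800 nM, without a call.

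Complex IV had the lowest median of the 5 complexes between the siRNAs, -0.31. Here 9 of 11 genes were lower and 0 higher under PKR siRNA 2 than with PKR siRNA 1 (0 higher also at an unadjusted p under 0.05 and with edgeR or DESeq2). Of all genes, 29.3% were lower and 27.7% higher in this comparison. COX8A, a small structural subunit, had 303, 280 and 315 normalized counts with control siRNA, compared to 374, 342 and 351 under PKR siRNA 1 and 203, 183 and 188 under PKR siRNA 2. The 3 groups did not overlap. The log2 fold changes were 0.25 ± 0.08 (SE, limma adjusted p = 0.00737) and -0.64 ± 0.08 (adjusted p = 1.09e-10), and they differed by -0.89 (adjusted p = 1.75e-16). COX6C had 189, 163 and 178 with control siRNA, compared to 204, 203 and 205 under PKR siRNA 1 and 116, 125 and 113 under PKR siRNA 2, and fell with the latter by 0.58 on the log2 scale (adjusted p = 5.43e-07). COX7A2 moved up with PKR siRNA 1 and down under PKR siRNA 2 (0.25 and -0.20, limma adjusted p = 0.00565 and 0.0297), the latter lost with edgeR (0.0501) and DESeq2 (0.152), whereas its relative COX7A2L, which joins complex IV to complex III, had 0.20 and -0.02.

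Other subunits of complex IV moved with C16 or under PKR siRNA 2. COX4I1, a regulatory subunit, was not called with either siRNA (0.16 and -0.13) and rose with 800 nM C16, from 293, 284 and 259 to 370, 396 and 384 (0.46, limma adjusted p = 5.20e-06). COX5A rose under PKR siRNA 2 (0.26, adjusted p = 0.0126), and a difference between the siRNAs was not called (0.14, adjusted p = 0.185). COX5B, which binds zinc, had 142, 130 and 167 with control siRNA, compared to 195, 196 and 189 under PKR siRNA 1 and 156, 178 and 180 under PKR siRNA 2, and 172, 148 and 147 with DMSO, 121, 138 and 119 at 400 nM and 109, 117 and 103 at 800 nM. It was above the control with both siRNAs (0.41, adjusted p = 0.000327; 0.23, adjusted p = 0.0434, with overlap) and below DMSO at both doses without overlap (-0.30, adjusted p = 0.0382; -0.50, adjusted p = 0.000180). Its calls under PKR siRNA 2 and at 400 nM were each lost without any of 4 single libraries and with DESeq2 (adjusted p = 0.133 and 0.124). NDUFA4, the exchangeable subunit, rose with PKR siRNA 1 (0.27, adjusted p = 0.00224).

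**Figure D2:**
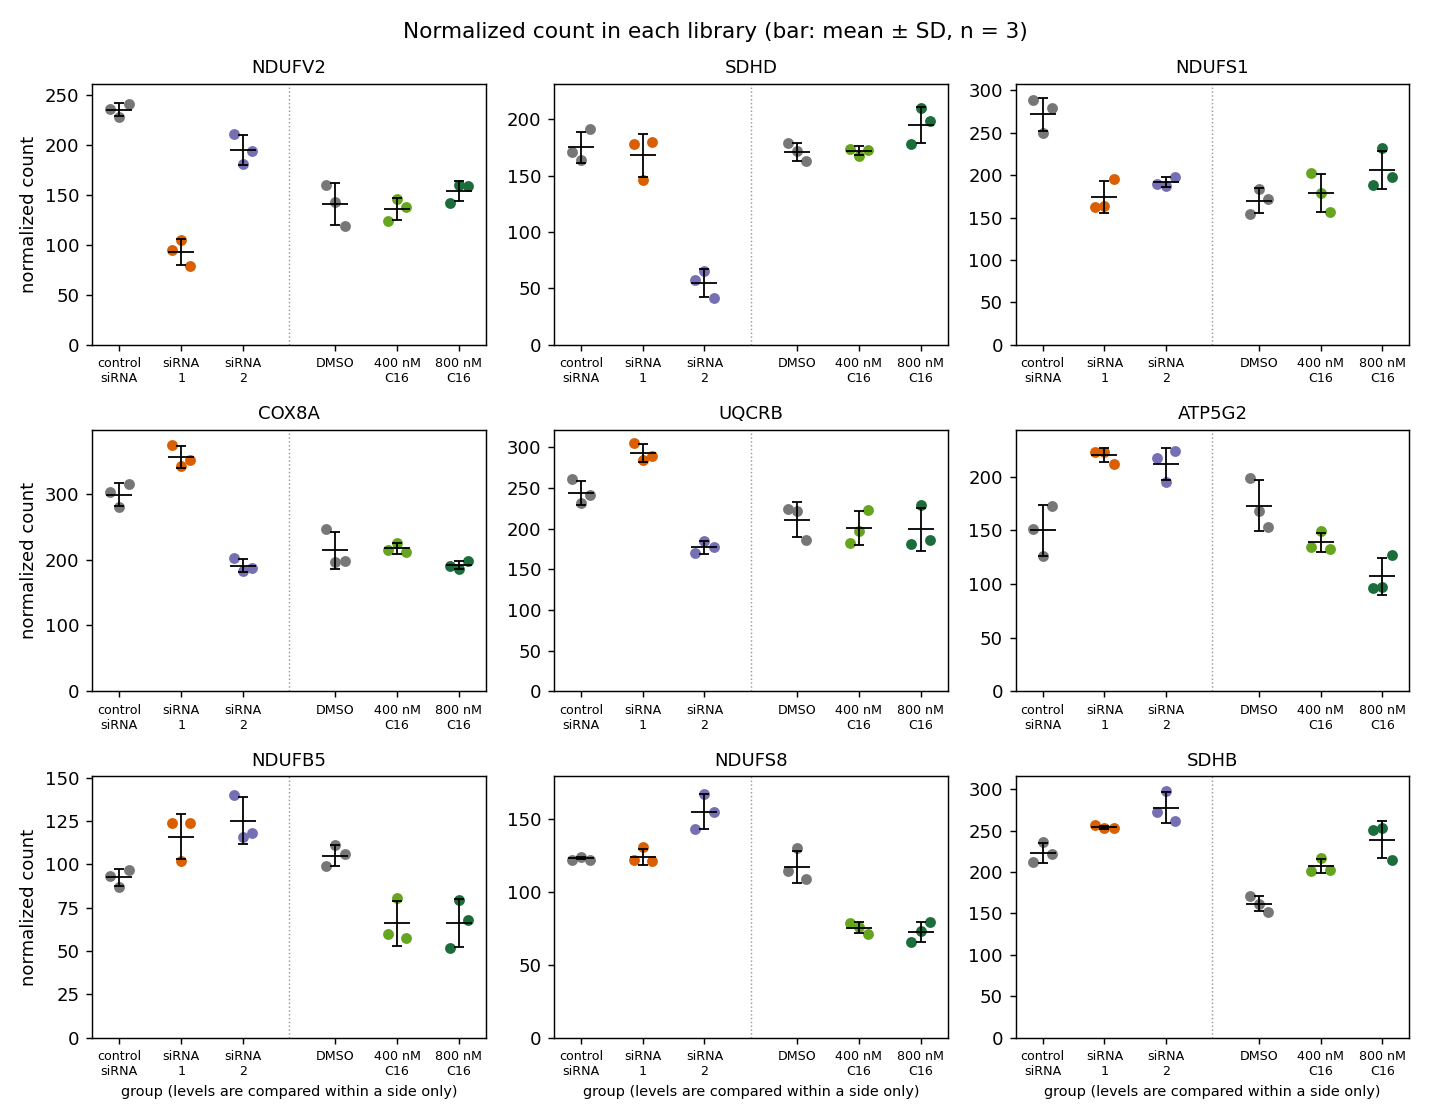
Normalized count (y axis, from 0) of 9 genes in each of the 18 libraries, 3 points per group with the mean and SD, the siRNA experiment left and the C16 experiment right of the dotted line. NDUFV2 is low with PKR siRNA 1 and SDHD under PKR siRNA 2, NDUFS1 is low with both, COX8A and UQCRB lie above the control with PKR siRNA 1 and below it under PKR siRNA 2, and ATP5G2, NDUFB5 and NDUFS8 lie below DMSO with C16.

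In complex V, 6 of 15 genes were higher and 1 lower with PKR siRNA 1, beside 21.1% and 23.9% of all genes. The lower gene was ATP5A1, which alone among the 5 genes of the catalytic F1 head was called with that siRNA. ATP5B had 1690, 1740 and 1750 normalized counts with control siRNA, compared to 1690, 1630 and 1630 under PKR siRNA 1 and 1790, 1850 and 1870 under PKR siRNA 2, and neither siRNA was called against the control (-0.07 and 0.09). ATP5A1, the alpha subunit, fell with PKR siRNA 1, from 722, 715 and 612 to 509, 524 and 521 (-0.39, limma adjusted p = 1.20e-07), and had 652, 665 and 665 under PKR siRNA 2 (-0.05, adjusted p = 0.576). The gamma subunit ATP5C1 was not called in any comparison (-0.02, 0.06, -0.12 and 0.01 against the controls). At 800 nM C16, ATP5B rose from 1110, 1160 and 1130 to 1320, 1390 and 1300 (0.24, adjusted p = 0.000492).

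The ring of c subunits, through which protons turn the enzyme, is built from a mature protein that ATP5G1, ATP5G2 and ATP5G3 all encode. ATP5G2 had 151, 126 and 173 normalized counts with control siRNA, compared to 223, 223 and 212 under PKR siRNA 1 and 217, 195 and 224 under PKR siRNA 2. With DMSO it had 199, 168 and 153, at 400 nM C16 134, 149 and 133, and at 800 nM 95.8, 97.5 and 127. It was above the control with both siRNAs (0.56, limma adjusted p = 9.18e-07; 0.51, adjusted p = 6.40e-06) and below DMSO at both doses (-0.31, adjusted p = 0.0344; -0.70, adjusted p = 9.72e-07), in each case without overlap. The call at 400 nM was lost without any of 4 single libraries and with DESeq2 (adjusted p = 0.107). ATP5G1 rose with PKR siRNA 1, from 213, 227 and 212 to 280, 253 and 294 (0.34, adjusted p = 0.000811), and fell under PKR siRNA 2, to 164, 197 and 186 (-0.25, adjusted p = 0.0129, but 0.103 with DESeq2). ATP5G3 rose with PKR siRNA 1 (0.27, adjusted p = 0.00250) and with 800 nM C16 (0.41, adjusted p = 5.26e-05).

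Taken per kb of exon, the share of the summed c subunit level that came from ATP5G2 was 21.8% ± 3.00 (SD, n = 3) with control siRNA, 24.6% ± 1.61 with PKR siRNA 1 and 31.2% ± 2.86 under PKR siRNA 2. It was 28.2% ± 1.34 with DMSO, 21.3% ± 0.163 at 400 nM and 17.0% ± 1.73 at 800 nM C16, and these 3 groups did not overlap. The normalized counts of the 3 genes were also summed without division by exon length. This sum was 652 ± 34.3 with control siRNA, 838 ± 22.6 with PKR siRNA 1 and 678 ± 19.1 under PKR siRNA 2. It was 601 ± 46.7, 609 ± 40.4 and 642 ± 28.6 with DMSO, 400 nM C16 and 800 nM C16. The sums of these last 3 groups overlapped. Shares and sums were not tested, and the scale per kb of the shares was chosen after values were seen.

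**Figure D3:**
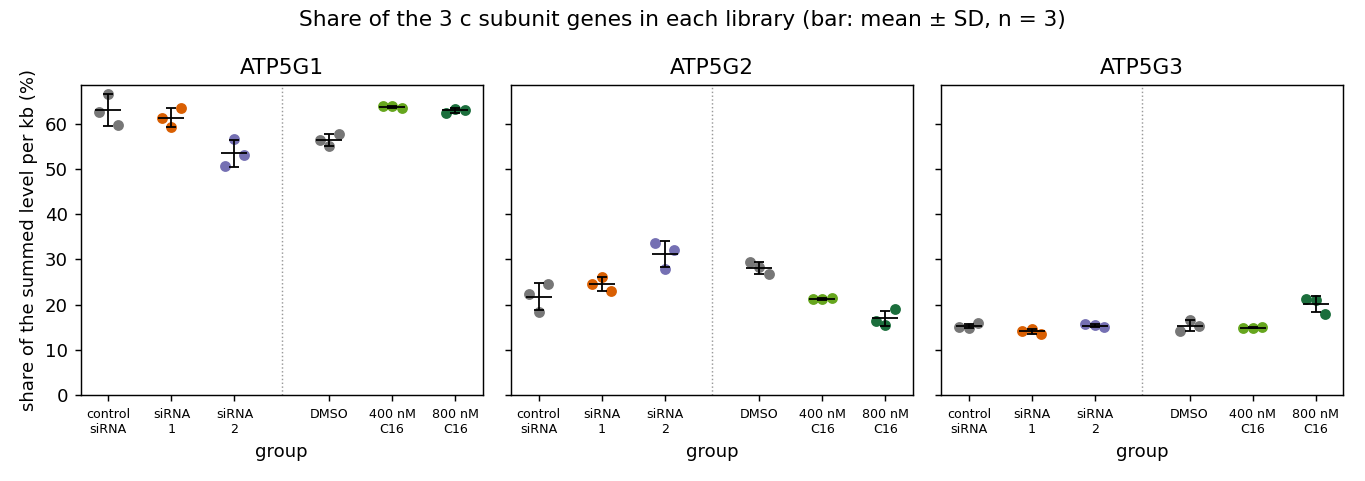
Share of the summed level per kb (y axis, percent, from 0) held by ATP5G1, ATP5G2 and ATP5G3 in each library, 3 points per group with the mean and SD, the siRNA experiment left and the C16 experiment right of the dotted line. The ATP5G2 share was 31.2% under PKR siRNA 2 against 21.8% in its control, and 17.0% with 800 nM C16 against 28.2% with DMSO.

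Peripheral and membrane subunits of complex V also changed. ATP5H, a stalk subunit, had 228 in each of the 3 control siRNA libraries and 340, 284 and 322 with PKR siRNA 1 (0.46, limma adjusted p = 3.67e-06), and with C16 it fell from 266, 250 and 244 to 183, 173 and 170 at 400 nM (-0.53, adjusted p = 9.78e-06) and 184, 217 and 188 at 800 nM (-0.37, adjusted p = 0.000833). ATP5J and ATP5J2 were higher at 800 nM than at 400 nM C16, by 0.52 (adjusted p = 0.00351) and 0.44 (adjusted p = 0.00920), and both are among the genes with overlapping exons. GABPA, which overlaps ATP5J, had -0.18 (adjusted p = 0.583) in that comparison. At 800 nM C16 against DMSO, GABPA was lower (-0.48, limma adjusted p = 0.0351). ATP5SL, which is no ATP synthase subunit, had 54.4, 51.6 and 47.4 with control siRNA, compared to 32.2, 58.0 and 37.6 under PKR siRNA 1 and 81.6, 63.3 and 84.6 under PKR siRNA 2 (0.56, adjusted p = 0.00417). It had 37.9, 31.4 and 38.8 with DMSO and 17.1, 24.4 and 13.4 with 800 nM C16 (-0.98, adjusted p = 0.000639).

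**Figure D4:**
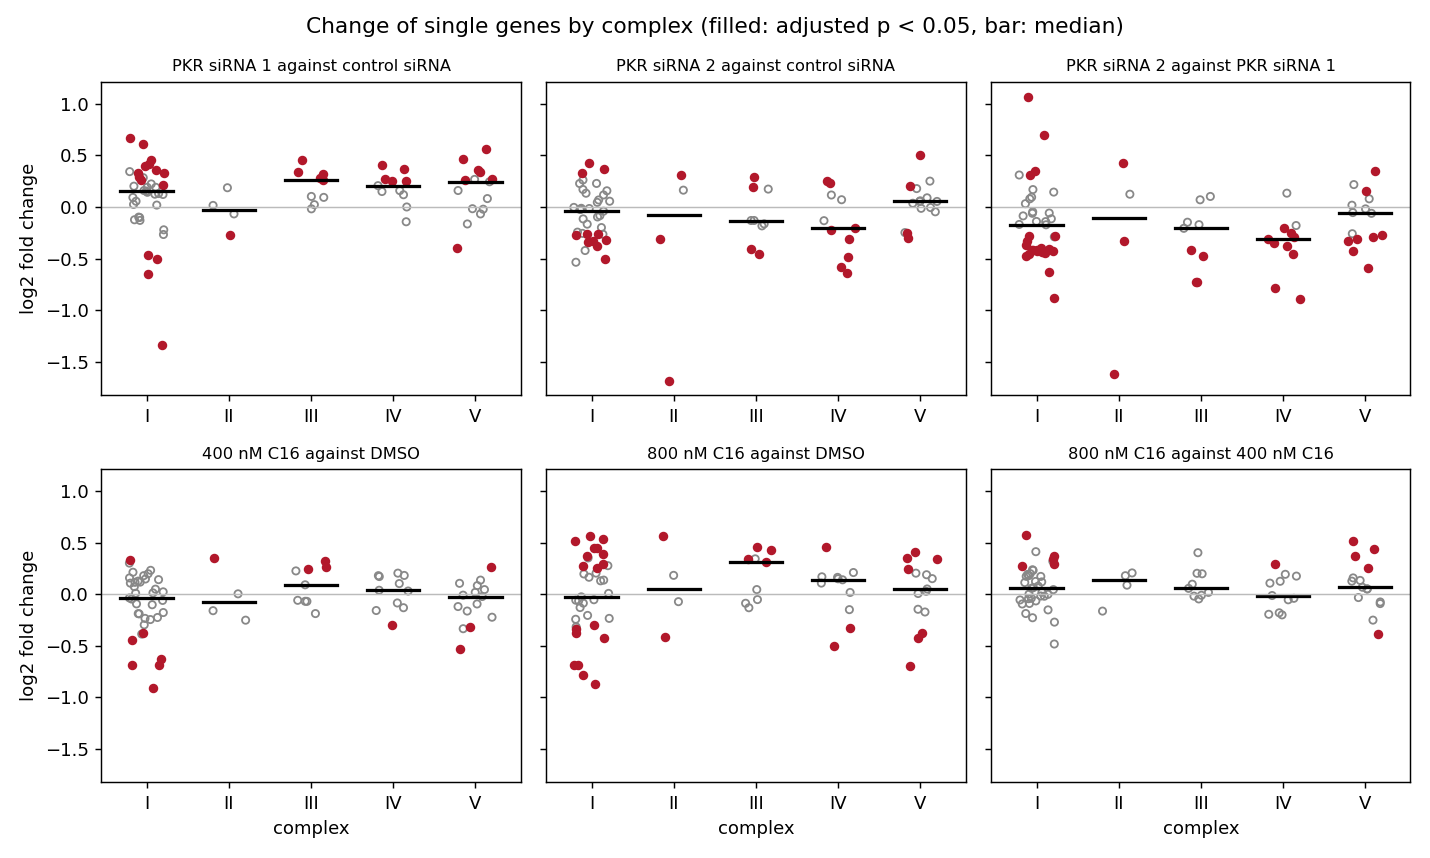
Log2 fold change (y axis) of the members of complexes I to V (x axis) in 6 comparisons, 1 point per gene, filled where the limma adjusted p was under 0.05, with a bar at the median. The complex III median was 0.26 with PKR siRNA 1 and 0.31 with 800 nM C16, and the complex IV median was -0.31 between the siRNAs.

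Summed over all 78 genes, the members took 0.936% ± 0.0205 (SD, n = 3) of all normalized counts in the control siRNA group, 1.03% ± 0.0252 with PKR siRNA 1 and 0.904% ± 0.00513 under PKR siRNA 2. All PKR siRNA 1 libraries lay above the controls and all PKR siRNA 2 libraries below them. The sum was 1.14% ± 0.0666 with DMSO, 1.14% ± 0.0208 at 400 nM C16 and 1.26% ± 0.0321 at 800 nM, and the 800 nM libraries lay above the rest. By complex, PKR siRNA 1 libraries were above the controls for complexes I, III, IV and V, and PKR siRNA 2 libraries were below them for complexes I, II, III and IV. For complex V, PKR siRNA 2 had 0.278% to 0.292% against 0.269% to 0.278%. These sums are weighted to the most abundant genes and were not tested.

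**Figure D5:**
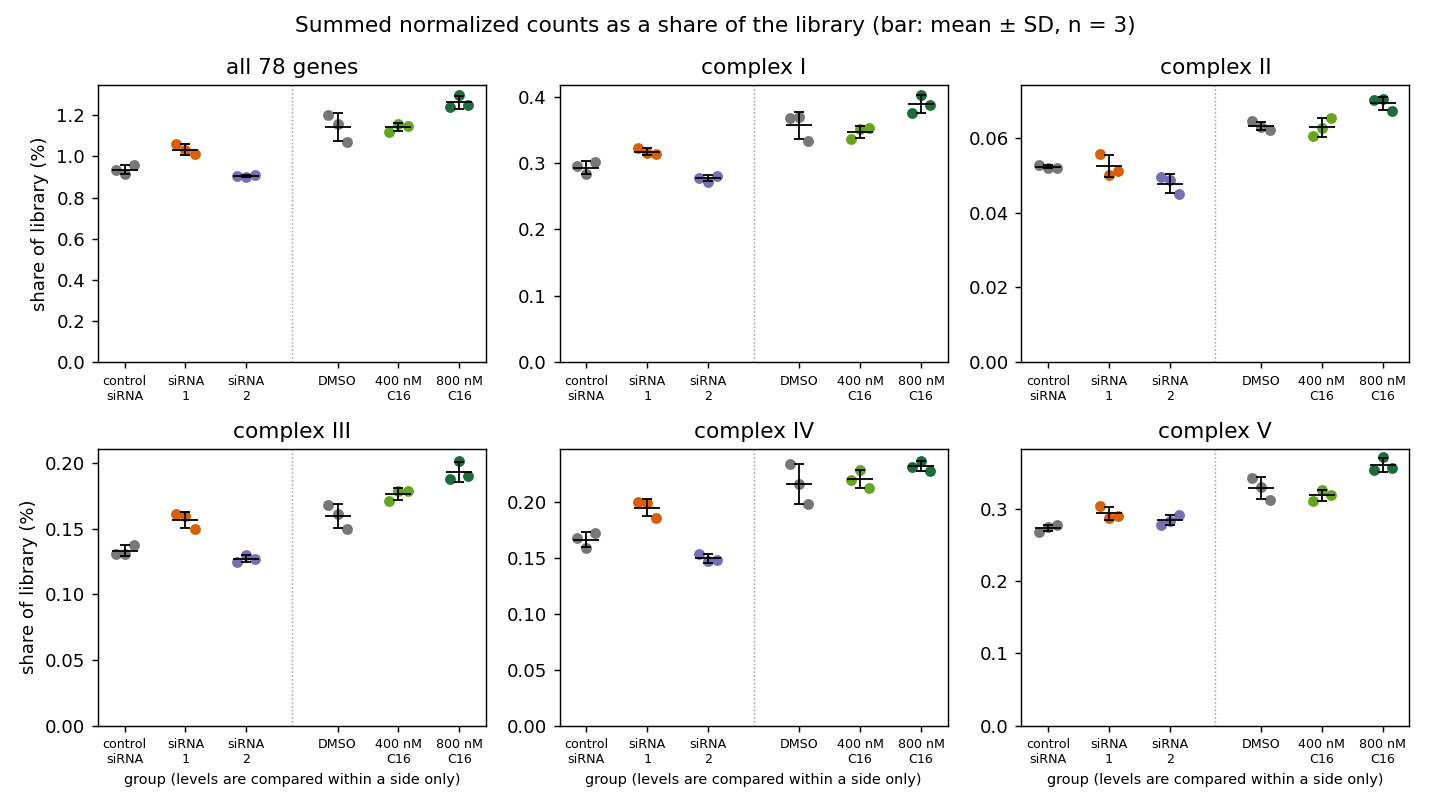
Summed normalized counts of all 78 genes and of each complex as a share of the library (y axis, percent, from 0), 3 points per group with the mean and SD, the siRNA experiment left and the C16 experiment right of the dotted line. The sum over all 78 genes was 1.03% with PKR siRNA 1, 0.904% under PKR siRNA 2 and 0.936% with control siRNA.

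Members are short, with a median of 967 exon bases against 3481 over all genes tested, so other short genes were set beside them. Among the 390 other genes under 1000 exon bases, 27.2% were higher and 14.6% lower with PKR siRNA 1 (median 0.09), and between the siRNAs 38.5% were lower and 17.4% higher (median -0.12). Of the 41 members under 1000 bases, 26.8% were higher and 4.88% lower with PKR siRNA 1 (median 0.16), so their share of rises was close to that of other short genes. Of the 37 longer members, 45.9% were higher and 10.8% lower (median 0.20), against 20.8% and 24.4% of other longer genes. Under PKR siRNA 2, 34.1% of the short members were lower and 7.32% higher (median -0.18), against 22.3% and 16.7% of other short genes, and the longer members had 16.2% and 21.6% (median 0.06). Mitochondrial ribosomal protein genes had medians of 0.16 with PKR siRNA 1 and -0.18 between the siRNAs over 76 genes. Cytosolic ribosomal protein genes, also short and abundant, had -0.04 and 0.10 over 82 genes, and -0.17 with 800 nM C16. The part of gene length in the members' counts was not tested further.

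Effects in the siRNA and C16 experiments can be set side by side because they share no libraries. Of the 28 members higher with PKR siRNA 1 and the 21 higher with 800 nM C16, 8 were in both lists (28.6% and 38.1%), namely ATP5G3, COX7A2L, NDUFA10, NDUFAB1, NDUFB9, NDUFV1, UQCRFS1 and UQCRH. Over the 9821 genes tested in both tables the shares were 35.2% and 34.4%, so the members' overlap was near that of all genes. SDHB was the only member higher under PKR siRNA 2 (of 11) and with 800 nM C16. ATP5G2, ATP5SL, COX5B, NDUFB5 and NDUFS8 were higher under PKR siRNA 2 and lower with 800 nM C16, and ATP5J2, NDUFA12, NDUFB8 and NDUFS1 the reverse. Differences between an siRNA and C16 were not tested, since the tables were normalized apart. In all 4 comparisons with a control, 13 members were never called, among them ATP5C1, ATP5O, NDUFS4, NDUFS7 and UQCR10. For the pairs of calls with PKR siRNA 2 and for genes never called, the share over all genes was not counted. These counts were therefore not read as a trait of the members.

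Genes that serve the chain but are not subunits were counted in the same fits. Over all genes, 21.1% were higher and 23.9% lower with PKR siRNA 1, and 22.1% and 25.2% under PKR siRNA 2. With C16 these shares were 14.6% and 11.9% at 400 nM and 22.3% and 22.6% at 800 nM. The counts below were not tested against these shares. Of 44 assembly factors tested in the siRNA table, 15 were higher and 4 lower with PKR siRNA 1 and 9 higher and 6 lower under PKR siRNA 2. Of 42 in the C16 table, 0 were higher and 5 lower at 400 nM and 10 higher and 11 lower at 800 nM. NDUFAF4, a complex I assembly factor, had 0.99 with PKR siRNA 1 and 1.12 with 800 nM C16, and NDUFAF3, which acts beside it, had -0.33 and -1.34, all called by limma. COX14, an early complex IV assembly factor, fell under PKR siRNA 2 (-1.23), whereas the assembly factors COX15 (0.81) and TTC19 (0.87) rose with it. Of 13 citric acid cycle genes 5 were higher and 1 lower with PKR siRNA 1, 4 and 3 under PKR siRNA 2, 5 and 0 at 400 nM and 6 and 2 at 800 nM. IDH3A, a subunit of NAD-dependent isocitrate dehydrogenase, fell with both siRNAs (-0.93 and -1.15) and rose with both doses (0.54 and 1.12). Of 9 carrier and nucleotide exchange genes, 2 were higher and 1 lower with PKR siRNA 1, 1 and 2 under PKR siRNA 2, 3 and 2 at 400 nM and 4 and 1 at 800 nM. CYCS, cytochrome c itself, had -0.65 under PKR siRNA 2 and 0.68 with 800 nM C16. Of 13 tested regulators of respiratory gene transcription, 5 were higher and 0 lower with PKR siRNA 1, 3 and 1 under PKR siRNA 2, 3 and 0 at 400 nM and 5 and 3 at 800 nM. ESRRA, a nuclear receptor that drives these genes, had 0.50 with PKR siRNA 1, -0.57 under PKR siRNA 2 and 0.65 with 800 nM C16, and NRF1, the factor whose motif is counted next, had -0.93 with 800 nM C16 (adjusted p = 0.0190, with overlap).

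Promoters of respiratory genes are known for sites of NRF1, of ETS factors such as GABPA and of YY1. The letters GCATGCGC (NRF1), CCGGAAGT (ETS) and AAGATGGCG (YY1) were searched on both strands in windows from 250 bases before to 50 after the start, taken from RefSeq (GRCh38.p14), in which 64 of the 78 members had an entry. The NRF1 letters were in 13 of the 64 (20.3%), against 3.27% of all 27305 promoters and 6.01% of the 8200 promoters of tested genes. The ETS letters were in 9 (14.1%, against 4.44% and 9.99%) and the YY1 letters in 8 (12.5%, against 1.85% and 4.66%). At least 1 of the 3 was in 24 (37.5%), against 8.90% and 19.0%. Members with the NRF1 letters had a median log2 fold change of 0.25 with PKR siRNA 1 and 0.06 under PKR siRNA 2, the other 51 had 0.16 and -0.10, and at 800 nM C16 the medians were 0.14 and 0.03. Members with the ETS letters had 0.32, -0.13 and -0.13, and the other 55 had 0.16, -0.01 and 0.14. Members with the YY1 letters had 0.21, 0.15 and 0.24, and the other 56 had 0.16, -0.04 and 0.02. These medians rest on few genes and were not tested. A match describes the letters only.

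The promoters of 4 members, chosen after values were seen because they changed and hold such letters, are printed from 250 bases before the start to 10 bases after the start, 5′ to 3′ on the strand of the gene, with the searched letters in capitals. SDHD lies at chr11:112086623-112086882 (plus strand), ATP5G2 at chr12:53676074-53676333 (minus), COX5B at chr2:97645812-97646071 (plus) and COX8A at chr11:63974370-63974629 (plus). SDHD holds overlapping NRF1 letters on both strands and 1 ETS match, ATP5G2 1 NRF1 match, COX5B 1 NRF1 and 2 ETS matches and COX8A 1 ETS match.
SDHD: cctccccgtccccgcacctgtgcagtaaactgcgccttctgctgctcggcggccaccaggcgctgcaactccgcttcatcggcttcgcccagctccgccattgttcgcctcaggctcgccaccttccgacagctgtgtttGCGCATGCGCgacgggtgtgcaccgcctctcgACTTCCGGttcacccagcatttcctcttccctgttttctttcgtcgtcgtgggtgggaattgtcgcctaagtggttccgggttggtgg
ATP5G2: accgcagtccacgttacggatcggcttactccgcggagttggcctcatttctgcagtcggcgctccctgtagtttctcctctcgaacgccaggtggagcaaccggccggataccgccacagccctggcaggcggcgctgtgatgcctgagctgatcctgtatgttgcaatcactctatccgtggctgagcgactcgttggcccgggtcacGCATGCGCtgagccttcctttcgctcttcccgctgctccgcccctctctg
COX5B: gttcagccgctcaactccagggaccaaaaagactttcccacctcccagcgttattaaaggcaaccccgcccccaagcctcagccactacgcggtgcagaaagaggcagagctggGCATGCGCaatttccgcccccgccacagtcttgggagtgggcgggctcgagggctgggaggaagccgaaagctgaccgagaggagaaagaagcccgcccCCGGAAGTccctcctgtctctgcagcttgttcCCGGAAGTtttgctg
COX8A: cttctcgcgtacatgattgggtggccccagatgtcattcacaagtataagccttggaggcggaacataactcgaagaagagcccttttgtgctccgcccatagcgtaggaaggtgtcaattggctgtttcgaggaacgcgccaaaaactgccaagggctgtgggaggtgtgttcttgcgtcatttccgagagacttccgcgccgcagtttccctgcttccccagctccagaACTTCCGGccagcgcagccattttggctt

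An siRNA guide can pair through its seed, guide bases 2 to 8, with 3′ UTRs of other mRNAs, so the 7 letters complementary to each seed were counted in the longest annotated 3′ UTR of each gene (GENCODE release 44). This count was chosen after values were seen. The letters of PKR siRNA 1 (AGAGATA) were in 4 of 78 members (5.13%), ATP5E, ATP5F1, NDUFS1 and UQCRB, and in 12.8% of 9647 tested genes. Those of PKR siRNA 2 (AAGTAAT) were in 9 members (11.5%), ATP5E, ATP5L, NDUFA9, NDUFV2, SDHC, SDHD, UQCRB, UQCRFS1 and UQCRQ, and in 17.7% of tested genes. Member 3′ UTRs had a median of 447 bases against 1623. For some matching members this 3′ UTR is longer than all the exon bases counted for the gene. Examples are ATP5E (3370 against 439 bases), NDUFS1 (9368 against 3572) and UQCRB (8108 against 5223). A match in such a gene can lie outside the exons counted. With PKR siRNA 1 the 4 members had a median log2 fold change of 0.05 and the other members 0.16, and under PKR siRNA 2 the 9 had -0.27 and the others -0.02. Over all tested genes, those with the letters had -0.21 with PKR siRNA 1 and -0.14 under PKR siRNA 2, and those without had 0.01 and 0.00. The same genes were also read with the other siRNA. Under PKR siRNA 2, genes with the letters of PKR siRNA 1 had -0.02 and those without -0.02. With PKR siRNA 1, genes with the letters of PKR siRNA 2 had -0.05 and those without -0.01. These medians were not tested. Of the 4 members with the letters of PKR siRNA 1, NDUFS1 (3 matches) fell with that siRNA (-0.65). UQCRB (3 matches) and ATP5F1 (1 match) rose, by 0.26 each, and ATP5E (1 match) was not called (-0.16). NDUFV2, which fell most with PKR siRNA 1, did not hold the letters of that siRNA, and SDHD held those of PKR siRNA 2 at base 711 of 824. That stretch is shown with the 7 letters in capitals because SDHD fell most under PKR siRNA 2, and whether the match bears on the fall was not tested.
SDHD 3′ UTR: tataaaactatAAGTAATaaattgttatt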

How the data were processed

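RNA-seq was available for 18 libraries of PANC-1 cells. The authors aligned reads to hg38 with TopHat, counted them per gene with featureCounts and scaled them by TMM in TCC, separately for each experiment. What they deposited is a signal, the read count of a gene after division by the factor of its library. Within 0.1, 100% of nonzero values were whole multiples of the smallest step, which gave back the reads. In PKR siRNA 2 replicate 1 and 800 nM C16 replicate 1 this step is too close to 1 to tell multiples from rounding. The annotation and the use of strand are not given in the sources used here. The number of columns not assigned to a sample was 0. Replicates differed by more than sampling noise (chi-square per degree of freedom 1.03 to 1.68), and none were merged.

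Genes with a mean of at least 10 were tested on log2(value + 1) with limma 3.58.1 (trend, two-sided, R 4.3.3). Each fit took the 9 libraries of its table, and p-values were adjusted by Benjamini-Hochberg over all genes tested. Fold changes on this scale understate the change of low genes. The pseudocount (0.5 or 5), the filter (none, or a mean of 30), the scaling (median of ratios, or totals), the libraries in the fit (only those compared, or with 1 left out) and a replicate block were varied 1 at a time. The reads given back were also tested with edgeR 4.0.16 and DESeq2 1.42.0. Scripts were tested on simulated data. The members, lists, motifs and tests were chosen with earlier results of these data known. Named members are the 3 largest rises and falls per comparison among called members whose groups did not overlap, catalytic or core subunits, paralogues, names that are no subunits and members of counts up to 5, and others named were chosen after their values were seen. Depth limits members with few reads, above all in the C16 table.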

Additional observations from a re-analysis of the deposited data

Results flagged for a closer look

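For 5 of the 78 members (6.41%) the siRNAs moved the count in opposite directions from the same control, each called by limma with either siRNA, and the difference between the siRNAs was itself past the threshold. Of all 10593 genes tested, 8.56% were called in opposite directions by the siRNAs, whichever siRNA was the higher. All 5 members were higher with PKR siRNA 1 and lower with PKR siRNA 2, as were 3.96% of all genes. The members' share lay below the first of these shares and above the second, and neither difference was tested. COX8A had 0.25 with PKR siRNA 1 and -0.64 with PKR siRNA 2 on the log2 scale, a difference of -0.89 (limma adjusted p = 1.75e-16). UQCRQ had 0.32 and -0.40, a difference of -0.73 (adjusted p = 1.39e-08), and UQCRB 0.26 and -0.46, a difference of -0.72 (adjusted p = 7.30e-12). ATP5G1 had 0.34 and -0.25, a difference of -0.59 (adjusted p = 1.29e-08), and COX7A2 0.25 and -0.20, a difference of -0.45 (adjusted p = 7.47e-07). In each direction all 3 libraries lay outside the range of the 3 control libraries. Without 1 library, the call of COX8A or UQCRQ with PKR siRNA 1 (Control siRNA replicate 2 or PKR siRNA 1 replicate 1), of ATP5G1 under PKR siRNA 2 (Control siRNA replicate 2 or PKR siRNA 2 replicate 1) and of COX7A2 under PKR siRNA 2 (Control siRNA replicate 1 or 3 or PKR siRNA 2 replicate 2) was lost, with its sign kept. With DESeq2 the calls of UQCRQ with PKR siRNA 1 (adjusted p = 0.0507) and of ATP5G1 (0.103) and COX7A2 (0.152) under PKR siRNA 2 were lost, the last also with edgeR (0.0501). The control libraries are shared by both comparisons. Groups of 3 libraries were not tested for outlying samples.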

How the results depend on the processing

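Of the 12 counts of called members, 6 moved by more than 1.5 times under at least 1 alternative and 6 did not. With DESeq2 on the recovered reads, PKR siRNA 2 against control gave 7 higher and 11 lower, 400 nM C16 gave 3 higher and 5 lower, and 800 nM against 400 nM C16 gave 4 higher and 0 lower. Leaving out 1 library gave 20 to 28 higher and 5 to 7 lower for PKR siRNA 1, 8 to 11 and 15 to 22 for PKR siRNA 2, 7 to 8 and 34 to 39 between the siRNAs, 3 to 9 and 5 to 10 at 400 nM, 15 to 23 and 13 to 16 at 800 nM, and 4 to 11 and 0 to 1 between doses. The replicate block gave the same counts as without it in all 6 comparisons (28 higher and 6 lower for PKR siRNA 1, 11 and 20 for PKR siRNA 2), although at 400 nM NDUFA7 lost its call (adjusted p = 0.0505) and ATP5I gained one (0.0430). Correlations of deviations were -0.0491 to 0.0324 for same-numbered and -0.0511 to 0.0503 for other libraries, so the numbers did not pair the libraries.

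The members' median stayed between 0.158 and 0.192 for PKR siRNA 1 but changed sign at 400 nM C16 (-0.067 to 0.036), and it ranged from 0.023 to 0.144 at 800 nM and from 0.033 to 0.103 between doses. For PKR siRNA 2 it was -0.095 without Control siRNA replicate 2 and -0.066 without PKR siRNA 2 replicate 3, and between the siRNAs -0.267 with total scaling. Log2 fold changes near 0 that were not called changed sign as follows. ATP5C1 with PKR siRNA 1 was 0.012 with total scaling and -0.087 to 0.074 with 1 library left out, with PKR siRNA 2 -0.006 to 0.154 and with 800 nM C16 -0.123 to 0.212. SDHD at 400 nM C16 was -0.011 with median-of-ratios scaling, -0.01 with DESeq2 and -0.032 to 0.034 with 1 library left out, and with PKR siRNA 1 it was -0.12 to 0.032. With 1 library left out, NDUFS8 with PKR siRNA 1 was -0.015 to 0.042 and COX7A2L with PKR siRNA 2 was -0.07 to 0.034. Among the printed fold changes of members, the called ones kept their sign. The causes were not tested. Printed calls of genes that are not members, such as NDUFAF4, IDH3A and NRF1, were not followed through these alternatives. Among the fold changes of members printed, the calls lost by leaving out 1 library were those of CYC1, COX5A, COX5B, COX7A2, ATP5G1, NDUFV2 and UQCR11 under PKR siRNA 2, of COX7A2L, COX8A, NDUFB1, NDUFB5, SDHA and UQCRQ with PKR siRNA 1, of ATP5G2, COX5B and NDUFA7 at 400 nM, of NDUFA7 and NDUFS1 at 800 nM, and of ATP5G2, ATP5J2, NDUFA12 and NDUFC2 between doses. With DESeq2, 20 printed calls of members were lost, which were those just named other than COX5A and COX8A. Of these, COX7A2 under PKR siRNA 2 and NDUFC2 between doses were also lost with edgeR, and without a filter on low values so were COX7A2L with PKR siRNA 1, COX5B under PKR siRNA 2, COX5B and NDUFA7 at 400 nM, and NDUFA12 between doses.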
